A study of Mus musculus with 9 samples.

Results

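Interferon regulatory factors (IRFs) and signal transducers and activators of transcription (STATs) were followed in endothelial cells (ECs) of mouse lungs that carried breast cancer metastases. The 9 members, Irf1, Irf2, Irf3, Irf5, Irf7, Irf8, Irf9, Stat2 and Stat3, were taken by name from the array annotation, which gave 18 probe sets of the 45101 on the array and 9 of the 18193 genes tested. The lungs formed 3 groups of 3 arrays. Metastasis anti-VEGF lungs came from NSG mice that, at 6 to 8 weeks of age, received MDA-MB-231-LM2 cells by the tail vein and B20.4.1.1, an antibody against VEGFA, by intraperitoneal injection at 10 mg/kg. Metastasis IgG lungs came from NSG mice given the same cancer cells at the same age and control IgG, and both were harvested on day 21 after the cells. Healthy IgG lungs came from age-matched NSG mice without cancer cells and with control IgG. MDA-MB-231-LM2 is a human breast cancer line selected for growth in the lung, and NSG is a strain without mature lymphocytes or natural killer cells, a trait of all 3 groups. Cells were sorted as CD31+ and free of CD45, CD11b, EpCAM, CD140a, CD140b and GFP, the tag of the cancer cells. The study describes 3 mice per group, and metastatic mice were picked for a similar bioluminescent load.

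IRFs and STATs carry the signal of interferons and related cytokines from the cell surface or from sensors of nucleic acid to the genome. IRF3 and IRF7 are activated downstream of these sensors and switch on type I interferon genes. Secreted type I interferon binds IFNAR1 and IFNAR2, and the Janus kinases at this receptor activate STAT2, which joins IRF9 in the complex that binds the interferon-stimulated response element (ISRE). IRF1 acts on many interferon-gamma targets, IRF2 often opposes it, IRF5 and IRF8 are best known from myeloid cells, and STAT3 carries the signal of IL-6 family cytokines. ECs respond to interferons and express the receptors for them.

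The promoters of the members that were higher in metastatic lungs (Irf7, Irf9 and Stat2) are shown because the question of shared elements arises for genes that move together. RefSeq windows on GRCm38.p6, from 250 bases before to 50 bases after an annotated start, were searched on both strands for an ISRE core, GAAANNGAA, and for a gamma-activated site (GAS), TTCNNNGAA, the element bound by STAT dimers. The GAS pattern reads the same on both strands, and matches of the 2 patterns may overlap. Matches are in capitals, and the runs end at the base before the start. The first run lies at chr7:141266425-141266674 on the minus strand, the second at chr14:55603735-55603984 on the plus strand and the third at chr10:128270248-128270497 on the plus strand.
Irf7: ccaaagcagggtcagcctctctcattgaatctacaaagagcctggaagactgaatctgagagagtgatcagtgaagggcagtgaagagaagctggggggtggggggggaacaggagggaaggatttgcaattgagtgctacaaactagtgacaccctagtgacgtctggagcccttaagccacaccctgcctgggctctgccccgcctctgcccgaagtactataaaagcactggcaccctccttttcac
Irf9: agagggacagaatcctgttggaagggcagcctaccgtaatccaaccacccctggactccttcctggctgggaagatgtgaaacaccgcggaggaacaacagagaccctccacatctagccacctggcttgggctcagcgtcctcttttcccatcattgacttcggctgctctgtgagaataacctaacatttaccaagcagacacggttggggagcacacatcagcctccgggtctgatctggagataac
Stat2: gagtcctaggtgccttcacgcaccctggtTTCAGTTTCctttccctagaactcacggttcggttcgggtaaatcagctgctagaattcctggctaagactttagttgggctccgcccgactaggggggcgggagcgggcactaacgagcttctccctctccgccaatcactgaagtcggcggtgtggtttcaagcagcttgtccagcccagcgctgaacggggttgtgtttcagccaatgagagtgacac
The Stat2 window held 1 ISRE core, which begins 221 bases before the start and reads on the minus strand. Neither pattern was found in the Irf7 window or in the 2 windows of Irf9. An ISRE core was present in 8.56% and a GAS in 8.3% of all 32851 windows.

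Matches among the other members were found in Irf1, Irf2 and Irf8, none of which was called higher at the gene level, and short stretches of these windows are given for comparison with Stat2. They lie at chr11:53769909-53769948, chr8:46739495-46739544 and chr8:120736172-120736228, all on the plus strand.
Irf1: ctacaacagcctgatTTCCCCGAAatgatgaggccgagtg
Irf2: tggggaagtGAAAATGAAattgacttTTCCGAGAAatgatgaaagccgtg
Irf8: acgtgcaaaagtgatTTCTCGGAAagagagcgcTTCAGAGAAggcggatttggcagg
The Irf1 stretch holds a GAS that begins 90 bases before the start. Irf2 holds an ISRE core and a GAS, beginning 241 and 224 bases before the start, and Irf8 holds 2 GAS patterns, beginning 171 and 153 bases before it. Thus 2 of 9 members had an ISRE core and 3 of 9 had a GAS, against 9.76% and 9.55% of all 27025 genes with a window. A match describes these letters in this window only.

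Sorted cells of all groups carried the endothelial program. The mean log2 signal of 15 endothelial markers, among them Pecam1, Cdh5 and Kdr, was 12.8 to 12.9 in every array, and 1 of the 15 (Emcn) was called between metastasis IgG and healthy IgG. Markers of macrophages and monocytes differed between the groups. Their mean signal over 23 genes was 9.01 to 9.28 in metastasis anti-VEGF arrays, 8.92 to 9.10 in metastasis IgG arrays and 8.09 to 8.37 in healthy IgG arrays, and 14 of the 23 were called higher in metastasis IgG than in healthy IgG. C1qa, a complement gene of macrophages, was higher by 2.64 ± 0.14 (log2 change ± SE here and below), and Ptprc, which encodes the CD45 used for the sort, had signals of 9.25 to 9.33 in metastasis IgG arrays and 8.24 to 9.24 in healthy IgG arrays. Of the other lists, 4 of 9 fibroblast and pericyte markers, 1 of 4 neutrophil markers and 1 of 6 epithelial markers were called higher. None of 8 dendritic and 8 lymphocyte markers was called. Over all genes 9.01% were called in this comparison, and 5.55% were called higher. A single called gene of a short list cannot be told from that share. Within a group the lowest correlation of arrays was 0.991. RNA integrity was read from the control probe sets of beta-actin, whose 3' signal exceeded the 5' signal by 0.526 to 0.62 in metastasis anti-VEGF arrays, 0.488 to 0.555 in metastasis IgG arrays and 0.609 to 0.62 in healthy IgG arrays (log2 units), and its part in the changes below was not tested.

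Metastasis was associated with higher signal of 3 of the 9 members, Irf7, Stat2 and Irf9, and with lower signal of none (metastasis IgG against healthy IgG, limma, adjusted p under 0.05 over all genes). The same comparison called 9.01% of all genes, and 5.55% of all genes as higher. The median log2 change of the 9 members was 0.12, against -0.00113 over all genes. For 6 of the 9 members (4 higher, 2 lower) metastatic and healthy arrays did not overlap, against 29.1% of all genes. Among the 18 probe sets, 5 were called, all of them higher, against 7.41% of all probe sets.

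**Figure D1:**
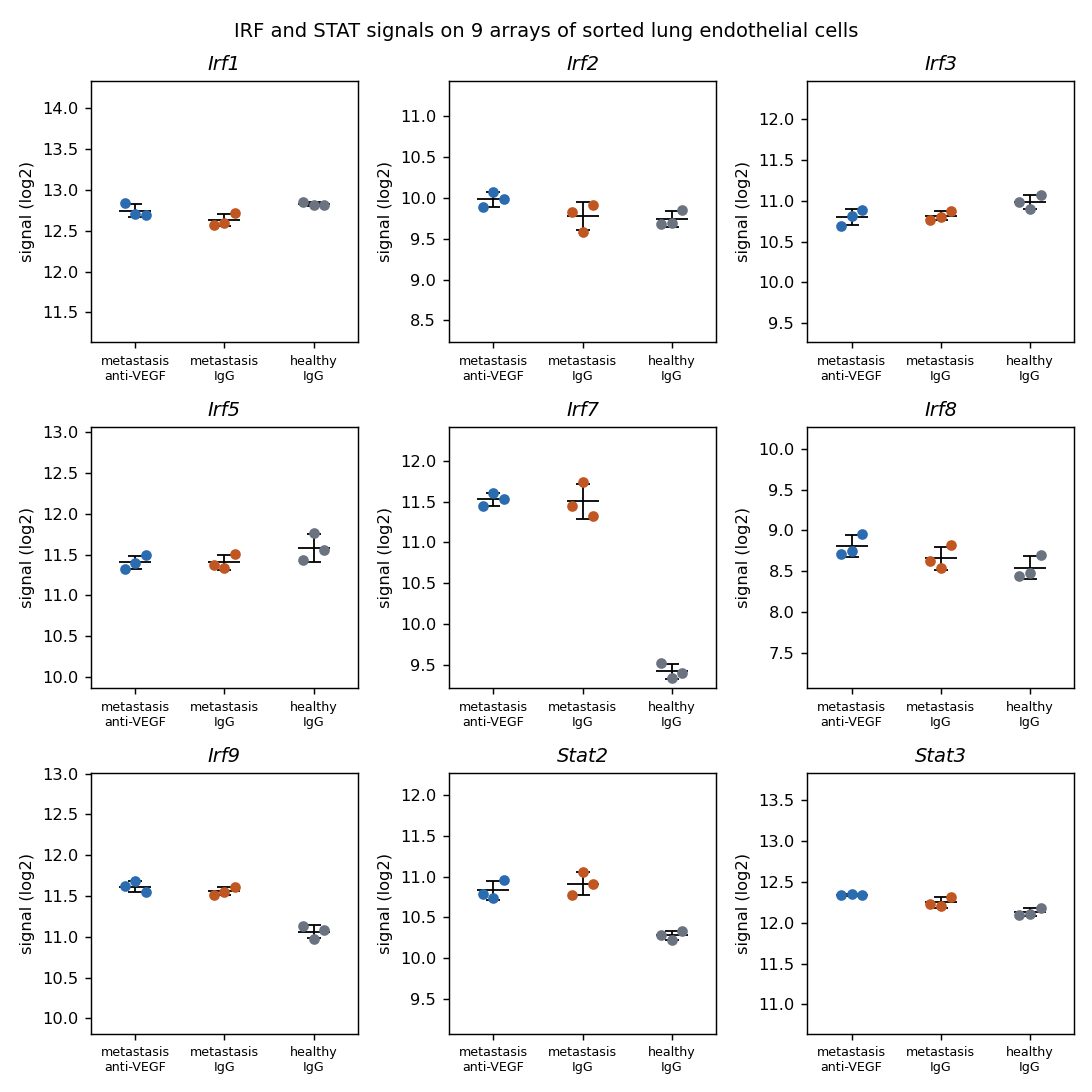
Log2 signal of the 9 members (y axis, each panel spanning the same range of log2 units) in metastasis anti-VEGF, metastasis IgG and healthy IgG arrays (x axis). Points are single arrays, horizontal lines are group means and bars are SDs of 3 arrays. Irf7 lies between 11.32 and 11.74 in the 6 metastatic arrays and between 9.34 and 9.52 in the 3 healthy arrays, and Irf9 and Stat2 show the same separation on a smaller scale.

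Irf7, the interferon-inducible factor that amplifies type I interferon production, had log2 signals of 11.44, 11.61 and 11.53 in metastasis anti-VEGF arrays, of 11.44, 11.74 and 11.32 in metastasis IgG arrays and of 9.52, 9.34 and 9.40 in healthy IgG arrays. All 6 metastatic arrays lay above all 3 healthy arrays. The log2 change in metastasis IgG against healthy IgG was 2.08 ± 0.12 (95% interval 1.82 to 2.35), a 4.24-fold higher signal (limma adjusted p = 5.39e-05). Irf7 stands in the study's inflammation list, chosen for higher values in ECs of metastatic than of control lungs. The study describes that choice by time point in the same lung model, not by antibody group. A rise of Irf7 in this model was thus known from that choice. In bulk samples a change in the share of cells that express a gene and a change in RNA per cell cannot be told apart. The macrophage markers moved with Irf7, Stat2 and Irf9 between the groups, and their part in these changes was not tested.

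STAT2 and IRF9 form the DNA-binding complex of type I interferon signaling, and both transcripts rose in metastatic lungs. Stat2 had signals of 10.79, 10.74 and 10.96 in metastasis anti-VEGF arrays, of 10.78, 11.06 and 10.91 in metastasis IgG arrays and of 10.28, 10.23 and 10.33 in healthy IgG arrays. It was 1.55-fold higher in metastasis IgG than in healthy IgG (0.64 ± 0.09, limma adjusted p = 0.00462). Its second probe set changed by 0.40 ± 0.09 (limma adjusted p = 0.0308 over all probe sets), with 9.55, 9.61 and 9.47 in metastasis IgG arrays and 9.08, 9.24 and 9.11 in healthy IgG arrays. Thus both probe sets gave the same direction without overlap of the groups.

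Irf9 had signals of 11.63, 11.68 and 11.54 in metastasis anti-VEGF arrays, of 11.51, 11.56 and 11.61 in metastasis IgG arrays and of 11.13, 10.98 and 11.08 in healthy IgG arrays. The change of metastasis IgG against healthy IgG was 0.50 ± 0.08, a 1.41-fold higher signal (limma adjusted p = 0.00735). The lowest metastatic array, 11.51, lay above the highest healthy array, 11.13. The calls of Irf7, Irf9 and Stat2 were kept when any single array was left out and under each change of fit, filter, probe set choice and scaling that was run, and only Irf7 passed the log2 threshold of 0.75 used by the study.

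IRF3, which is present before infection and is activated by phosphorylation, had a transcript that did not pass the test on any of its 4 probe sets. The probe set used for the gene had signals of 10.77, 10.80 and 10.88 in metastasis IgG arrays and of 10.99, 10.90 and 11.07 in healthy IgG arrays, a change of -0.17 ± 0.08 (limma adjusted p = 0.257). The metastatic arrays lay just below the healthy arrays. The other 3 probe sets had log2 differences of -0.06 to -0.35, and their arrays overlapped.

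Irf1, encoding an activator of interferon-gamma targets, was not higher in metastatic lungs. Its signals were 12.58, 12.60 and 12.71 in metastasis IgG arrays and 12.86, 12.81 and 12.82 in healthy IgG arrays, so that every metastasis IgG array was below every healthy array. The change of -0.20 ± 0.08 did not pass the test (limma adjusted p = 0.158), except with a variance trend and robust settings, where the adjusted p was 0.022. Irf2, the frequent antagonist of IRF1, had overlapping signals of 9.59 to 9.92 in metastasis IgG arrays and 9.68 to 9.86 in healthy IgG arrays (0.03 ± 0.11).

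The members best known from myeloid cells gave different answers by probe set. For Irf8, a factor of monocyte and dendritic cell development, the brighter probe set had signals of 8.63, 8.54 and 8.81 in metastasis IgG arrays and of 8.44, 8.48 and 8.70 in healthy IgG arrays, which overlapped (0.12 ± 0.11, limma adjusted p = 0.572). The second probe set had 8.51, 8.65 and 8.38 in metastasis IgG arrays and 7.70, 7.89 and 7.88 in healthy IgG arrays, with no overlap. It was 1.62-fold higher (0.69 ± 0.10, limma adjusted p = 0.00575 over all probe sets), and the mean of both probe sets was called as well (0.41, adjusted p = 0.0149). The macrophage markers rose in the same arrays as the second probe set of Irf8, and their part in its change was not tested.

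Irf5, a factor of inflammatory macrophages, did not pass the test on either probe set in metastasis IgG against healthy IgG. The brighter probe set had signals of 11.37, 11.34 and 11.51 in metastasis IgG arrays and of 11.43, 11.77 and 11.56 in healthy IgG arrays (-0.18 ± 0.11, limma adjusted p = 0.36), and the second gave -0.01 ± 0.09.

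**Figure D2:**
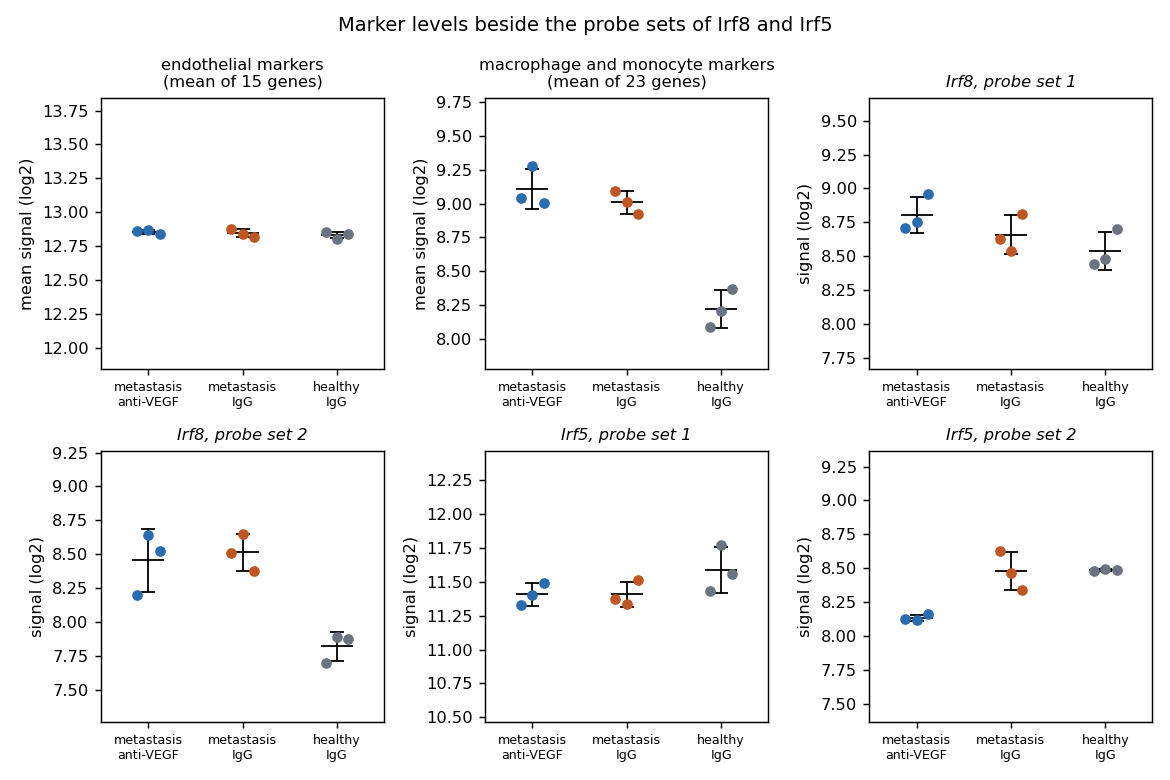
Mean log2 signal of 15 endothelial and 23 macrophage and monocyte markers, and log2 signals of the 2 probe sets each of Irf8 and Irf5 (y axes), by group (x axes). Points are arrays, lines are means and bars are SDs of 3 arrays; the second probe set of Irf8 and the macrophage markers are higher in all 6 metastatic arrays than in the healthy arrays, and the second probe set of Irf5 is lowest in the anti-VEGF arrays, at 8.12 to 8.16.

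STAT3, the transducer of IL-6 family cytokines, was not called on any of its 4 probe sets in metastasis IgG against healthy IgG. The brightest had signals of 12.23, 12.20 and 12.32 in metastasis IgG arrays and of 12.10, 12.11 and 12.18 in healthy IgG arrays, which did not overlap, yet the change of 0.12 ± 0.08 was not called (limma adjusted p = 0.413). The next gave 0.23 ± 0.08 (limma adjusted p = 0.115 over all probe sets), with 11.93 to 11.98 in metastasis IgG arrays and 11.71 to 11.74 in healthy IgG arrays. The remaining probe sets gave -0.16 ± 0.10 and 0.04 ± 0.10, with overlapping arrays.

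Members were next compared between metastatic lungs with and without blockade of VEGF. The study reports lower VEGF target genes in lung ECs and less vascular growth under this antibody. None of the 9 members was called between metastasis anti-VEGF and metastasis IgG, and 0% of all genes were called by limma in this comparison, where 1462 genes had an unadjusted p under 0.05 and no member did. Because no gene at all was called, the lack of member calls does not show that they are independent of VEGF. The intervals below bound the differences of Irf7, Stat2 and Irf9. The 9 log2 changes lay between -0.08 (Stat2) and 0.21 (Irf2). Irf7 differed by 0.02 ± 0.12, with a 95% interval of -0.24 to 0.29, against the 2.08 by which it exceeded healthy arrays under IgG. The interval was -0.32 to 0.15 for Stat2 and -0.13 to 0.25 for Irf9. Arrays did not overlap for 1 of 9 members, Stat3 (12.34, 12.35 and 12.34 in anti-VEGF arrays against 12.23, 12.20 and 12.32 in metastasis IgG arrays), compared with 13.1% of all genes, and its change was 0.09 ± 0.08. The second probe set of Irf5 had the lowest unadjusted p among the 18 probe sets, with 8.13, 8.12 and 8.16 in anti-VEGF arrays and 8.63, 8.46 and 8.34 in metastasis IgG arrays. Its change of -0.34 ± 0.10 was not called (limma adjusted p = 0.502 over all probe sets), while the brighter Irf5 probe set differed by 0.00 ± 0.09.

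Against healthy IgG, metastasis anti-VEGF lungs again had 3 of 9 members called higher and none lower. Of all genes 6.44% were called, and 4.15% of all genes as higher, and the healthy arrays were the same as in the comparison with IgG. In this comparison 14 of 23 macrophage and monocyte markers, 4 of 4 neutrophil markers and 3 of 9 fibroblast and pericyte markers were also called higher, and their part in the changes of the members was not tested. The mean signal of the neutrophil markers was 8.09 to 8.26 in metastasis anti-VEGF arrays and 7.31 to 7.60 in healthy IgG arrays. Irf7 was 4.31-fold higher (2.11 ± 0.09, limma adjusted p = 1.50e-05), Irf9 1.47-fold (0.55 ± 0.08, adjusted p = 0.00653) and Stat2 1.47-fold (0.55 ± 0.09, adjusted p = 0.00877). Arrays did not overlap for 7 members (6 higher, 1 lower), against 26.9% of all genes. Irf2 (0.24 ± 0.09, limma adjusted p = 0.165), Irf8 (0.27 ± 0.11, adjusted p = 0.193) and Stat3 (0.21 ± 0.07, adjusted p = 0.138) were among these without passing the test. Stat3 was called with a variance trend and robust settings (adjusted p = 0.0204) and with its second probe set as the gene (0.31, adjusted p = 0.0486). Of the 18 probe sets, 6 were called, against 5.41% of all probe sets. Those were the probe sets of Irf7 and Irf9, both of Stat2, the second of Irf8 (0.63 ± 0.13) and, as the only one that was lower, the second of Irf5 (-0.35 ± 0.08, limma adjusted p = 0.0358).

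**Figure D3:**
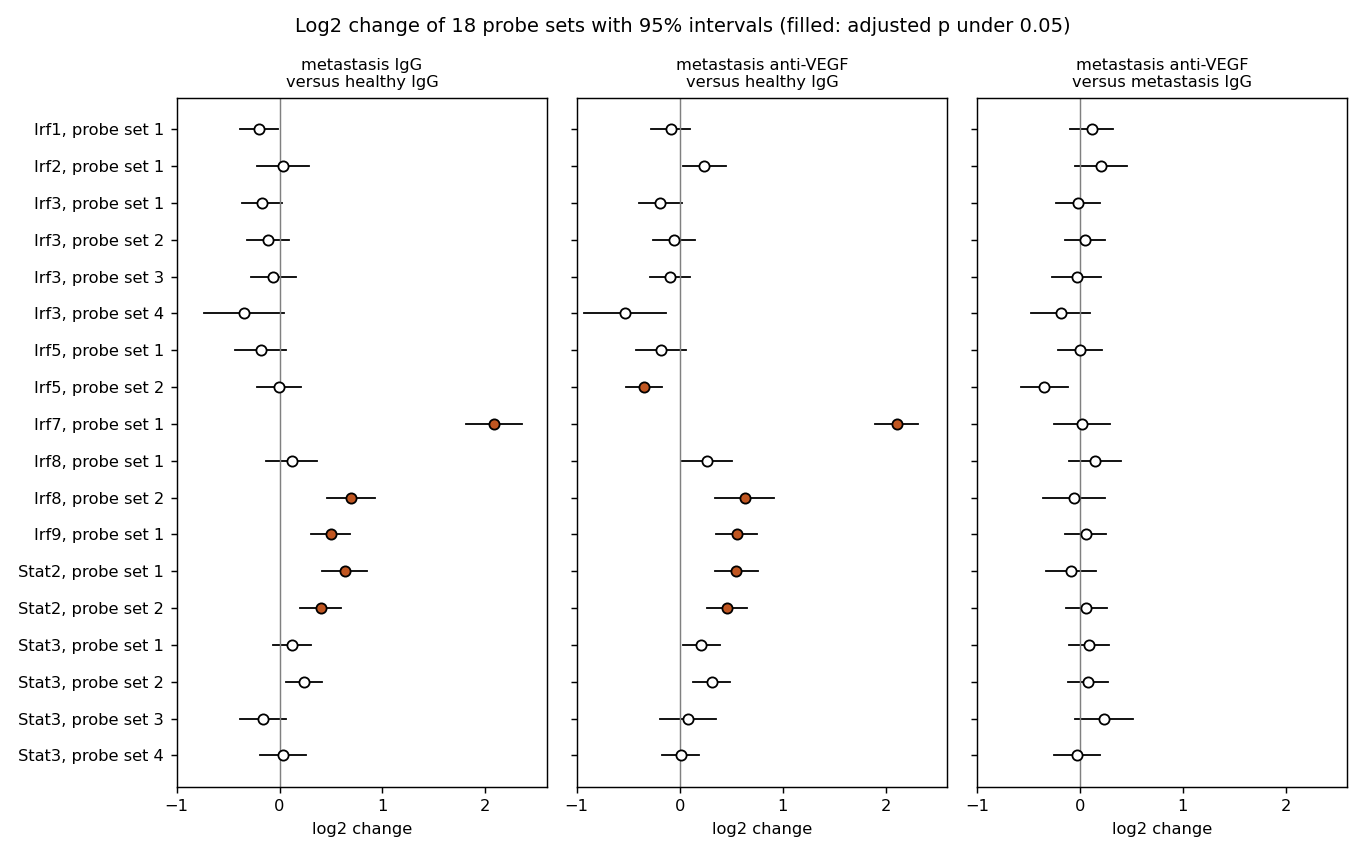
Log2 change (x axis) of all 18 probe sets of the members (y axis, brightest probe set of a gene first) in 3 comparisons. Points are limma estimates, lines are 95% intervals and filled points passed an adjusted p under 0.05 over all probe sets. The 2 comparisons with healthy IgG share the healthy arrays, and Irf7 stands at 2.08 and 2.11 in them and at 0.02 in the comparison of anti-VEGF with IgG.

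The genes around the members were read by their role. In metastasis IgG against healthy IgG, 14 of 23 macrophage and monocyte markers and 4 of 9 fibroblast and pericyte markers were also higher. The part of such cells in the changes of these lists was not tested. Of 5 other IRF and STAT genes measured (Irf4, Stat4, Stat5a, Stat5b and Stat6), none was called in metastasis IgG against healthy IgG, and the median change was -0.13. Stat5b, a transducer of growth hormone and cytokine signals, had 10.25, 10.20 and 10.10 in metastasis IgG arrays and 10.49, 10.41 and 10.48 in healthy IgG arrays (-0.28 ± 0.08, limma adjusted p = 0.0696). It fell by 0.37 ± 0.08 in metastasis anti-VEGF against healthy IgG (limma adjusted p = 0.0328). Stat5a, its close relative, gave -0.41 ± 0.16 under IgG (limma adjusted p = 0.163).

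Ligands and receptors of the pathway were read against the 5.55% of all genes called higher in metastasis IgG than in healthy IgG. Of 9 interferons and cytokines measured, Il6 (0.80 ± 0.19, limma adjusted p = 0.0371) and Lif (0.43 ± 0.09, adjusted p = 0.0202), both ligands of the IL-6 family that signal to STAT3, were higher in metastasis IgG than in healthy IgG, and none was lower. The probe sets of the interferons themselves, Ifnb1, Ifng, Ifna4 and Ifna5, gave log2 differences of 0.07, -0.00194, 0.04 and 0.06, and none was called. Whether these transcripts were above background was not tested, so the small differences do not show that they were unchanged. Among 12 receptors and Janus kinases only Osmr, the oncostatin M receptor, was called, with 12.41, 12.19 and 12.55 in metastasis IgG arrays and 11.98, 11.89 and 11.95 in healthy IgG arrays (0.44 ± 0.10, limma adjusted p = 0.0341). Ifnar1, a chain of the type I interferon receptor, gave 0.26 and Jak1, a kinase at that receptor, gave 0.04, and neither passed the test.

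Of 16 sensors, adaptors and kinases upstream of IRFs, 4 were higher in metastasis IgG than in healthy IgG and none was lower, against 5.55% of all genes called higher. All 4 are sensors of nucleic acid or their regulators. Ifih1 is an example among them of a known interferon-inducible gene, and the list was not cleared of such genes. It therefore names a role and gives no order of events. Dhx58 (LGP2) had 9.50, 9.58 and 9.30 in metastasis IgG arrays and 8.45, 8.15 and 8.15 in healthy IgG arrays, a change of 1.21 ± 0.11. Zbp1 changed by 1.06 ± 0.09, Ifih1 (MDA5) by 0.65 ± 0.08 and Ddx58 (RIG-I) by 0.59 ± 0.08. The adaptor Mavs (0.04) and the kinases Tbk1 (0.05) and Ikbke (0.07), which activate IRF3 and IRF7, were not called.

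Of 15 inhibitors of the pathway, 2 were higher and none was lower, against the same 5.55% of all genes. Usp18, which restrains signaling at the type I interferon receptor, had 11.33, 11.78 and 11.47 in metastasis IgG arrays and 9.60, 9.34 and 9.64 in healthy IgG arrays, a log2 change of 2 ± 0.13 (limma adjusted p = 0.000138). Usp18 is also a known interferon-inducible gene. Ptpn1, a phosphatase of Janus kinases, changed by 0.32 ± 0.07. Socs1 and Socs3, feedback inhibitors of Janus kinases and of STAT3 signaling, gave -0.16 and 0.11 and were not called.

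Of 26 measured targets of type I interferon, 22 were higher in metastasis IgG than in healthy IgG and none was lower, with a median of 0.81, against 5.55% of all genes called higher. Rsad2 (viperin), an antiviral enzyme, had 12.34, 12.58 and 12.27 in metastasis IgG arrays and 9.22, 9.36 and 9.34 in healthy IgG arrays, an 8.50-fold difference (3.09 ± 0.10). Ifit2 changed by 2.67 ± 0.15, the antiviral GTPase Mx1 by 2.64 ± 0.09 and Oas2, a sensor of double-stranded RNA, by 2.04 ± 0.12. The 4 targets not called were Epsti1 (-0.16), Ifi35 (0.21), Trim25 (0.08) and Samd9l (0.33). An ISRE core was present in the windows of 10 of the 20 targets with a RefSeq window, against 9.76% of all genes. Rsad2 was among them, and so were Trim25 and Samd9l, which were not called. The Rsad2 stretch at chr12:26456548-26456586 on the minus strand is given beside that of Stat2 because both carry the core in the same orientation.
Rsad2: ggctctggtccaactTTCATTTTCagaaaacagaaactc

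Targets of interferon-gamma and IRF1 were higher in part, beside an Irf1 transcript that was not. The list names a role, and which signal raised its genes was not tested. Of 15 measured, 7 were higher in metastasis IgG than in healthy IgG and none was lower (median 0.36), where 5.55% of all genes were called higher. The chemokine Cxcl10 changed by 1.55 ± 0.14, Nlrc5, an activator of MHC class I genes, by 1.37 ± 0.15, Cxcl9 by 1.26 ± 0.15 and Nos2 by 0.74 ± 0.08. Of 13 STAT3 targets 6 were higher and none was lower (median 0.29), against the same share of all genes. Serpina3n, an acute-phase protease inhibitor, changed by 2.11 ± 0.11, Lrg1, a secreted vascular glycoprotein, by 1.98 ± 0.10, Myc by 1.96 ± 0.11 and Timp1 by 0.78 ± 0.10. Lif, Osmr, Cxcl9, Cxcl10, Myc and Timp1 stand, as Irf7 does, in the study's inflammation list. Osmr is a member of both the receptor list and the STAT3 target list. Socs3, which was not called, is a member of both the inhibitor list and the STAT3 target list.

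None of the genes in these lists was called between metastasis anti-VEGF and metastasis IgG, where 0% of all genes were called. The lack of calls therefore does not show that these genes are independent of VEGF. The median change of the type I interferon targets was 0.00131 there, with 14 above and 12 below 0, and Rsad2 differed by -0.01 ± 0.11. Dhx58 differed by 0.34 ± 0.11 (limma adjusted p = 0.491). Its signals were 9.75, 9.96 and 9.67 in anti-VEGF arrays against 9.50, 9.58 and 9.30 in metastasis IgG arrays. These did not overlap, as was the case for 13.1% of all genes. Against healthy IgG, metastasis anti-VEGF lungs had 20 of 26 type I targets, 10 of 15 interferon-gamma and IRF1 targets and 6 of 13 STAT3 targets called higher and none lower, where 4.15% of all genes were called higher.

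**Figure D4:**
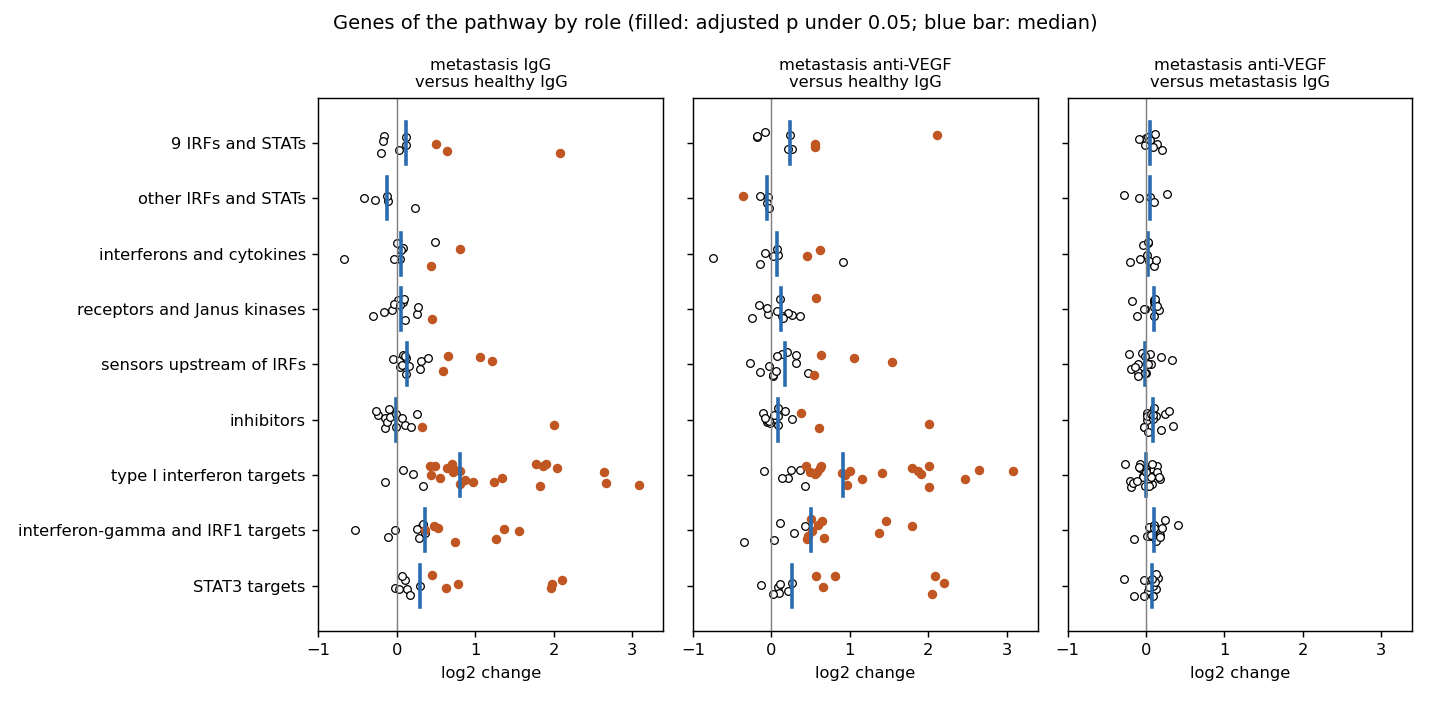
Log2 change (x axis) of single genes, grouped by role in the pathway (y axis), in 3 comparisons, the first 2 of which share the healthy arrays. Filled points passed an adjusted p under 0.05 over all genes and blue bars are medians. The type I interferon targets have medians of 0.81 and 0.92 against healthy IgG and 0.00131 between anti-VEGF and IgG.

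Genes with the most similar profile were found by the root mean square distance between log2 profiles over the 9 arrays, each centered on its own mean. Profiles were not scaled, so the median distance of all genes largely follows the size of the member's own change. It does not show how unusual a near gene is. Nearest to Irf7 were Oas2 (0.05), Lrg1 (0.09), Usp18 (0.10), Myc (0.13) and Oas1a (0.14), where the median distance of all genes was 1.01. Nearest to Stat2 were Ifih1 (0.06), Pcdh17 (0.07), Irgm1 (0.07), Il18bp (0.08) and Gm20559 (0.08), against a median of 0.33. Nearest to Irf9 were Psmb8 (0.03), Nlgn2 (0.03), Gbp7 (0.05), Efhd2 (0.05) and Trafd1 (0.05), against a median of 0.29. Among these 15 genes, Oas2, Oas1a, Usp18, Ifih1, Irgm1, Psmb8 and Gbp7 are examples of known interferon-inducible genes. Pcdh17, a protocadherin, and Nlgn2, a neuroligin, encode adhesion proteins. These genes were picked out after the values were seen, and the share of interferon-inducible genes among all genes was not counted.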

How the data were processed

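RNA of sorted lung ECs was labeled from 1 ng and hybridized to Affymetrix Mouse Genome 430 2.0 arrays. The authors normalized the arrays by robust multiarray average (RMA) in Chipster, and the deposited log2 signals of 45101 probe sets on 9 arrays were used unchanged. GEO's platform annotation named a single gene for 34945 probe sets that are not controls, which gave 18193 genes. Each gene was represented by its probe set of highest mean signal over the 9 arrays, and all 18 probe sets of the members were also fitted in a model of every probe set. Dim genes were kept.

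The 6 arrays of a comparison were fitted alone, by lmFit and eBayes of limma (3.58.1, R 4.3.3) and without a block, after the study's methods. P values were adjusted by Benjamini-Hochberg over all genes or all probe sets, and values under 0.05 were called. The model was tested on simulated data in which 200 genes had known changes. The members, the gene lists and the tests were chosen with earlier results of these data known. For each list the text names up to 4 called genes of largest change in metastasis IgG against healthy IgG, or 2 genes of smallest p where none was called, and for 3 members the 5 genes nearest in profile. Genes outside this rule were named after their values were seen.

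Promoter windows came from RefSeq (GRCm38.p6), 250 bases before to 50 bases after an annotated start, and all 9 members had at least 1 of the 32851 windows. Alternatives covered the probe sets, the fit, the filter, the scaling, the thresholds of the study and each array left out. Python 3.11.15, pandas 2.3.3 and matplotlib 3.10.9 served for sequences and figures. Arrays hold no read depth, and the number of arrays limits the precision.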

Additional observations from a re-analysis of the deposited data

How the results depend on the processing

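The calls of Irf7, Irf9 and Stat2 against healthy IgG were kept in all 15 alternatives for each comparison, with log2 changes of 1.97 to 2.17, 0.45 to 0.53 and 0.52 to 0.70 in metastasis IgG, and no member was called between anti-VEGF and IgG in any. Under the thresholds of the study 1 member, Irf7, was called in each comparison with healthy IgG, and the genes called were 507 for metastasis IgG (857 probe sets) and 430 for anti-VEGF (691 probe sets), where adjusted p alone called 1640 (2591) and 1172 (1891). With a variance trend and robust settings 1848 genes and 2966 probe sets were called for anti-VEGF. With 1 array left out, genes called ranged from 869 to 1478 for metastasis IgG against healthy IgG (1326 to 2231 probe sets) and from 645 to 1139 for anti-VEGF against healthy IgG (928 to 1752 probe sets); the counts fell by over 1.5 times without any single array other than metastasis IgG replicate 3 or anti-VEGF replicate 1. With the replicate number as a block, 1176 and 841 genes were called and 3 members in each; the numbers did not pair the arrays (correlations of -0.0757 to 0.0138 between same-numbered arrays) and the block changed no call of a member. Of 402 values of members under alternatives, 386 kept direction and call, 5 gained a call and 11 changed sign, all of them changes near 0 that were not called. Irf2 in metastasis IgG against healthy IgG was -0.00033 after centring of arrays and -0.036 to 0.13 with single arrays left out. Between anti-VEGF and IgG, Irf5 was -0.17 as the mean of its probe sets and -0.042 to 0.0534 with single arrays left out, Irf3 was -0.063 to 0.0367 and Irf7 was -0.065 to 0.14. The causes were not tested. The filter on dim genes removed Irf8, so its value there was not given.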
